A study of Mus musculus with 8 samples.

Results

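The guidance genes described here are the ephrins and their Eph receptors, the semaphorins with their plexin and neuropilin receptors, the netrins with their Unc5 receptors, and the Slits with their Robo receptors. They were chosen by gene symbol from the protein-coding genes of RefSeq on mm10, and 67 of 21887 protein-coding genes belong to these families. A SMAD4 peak was given to a guidance gene when that gene had the nearest protein-coding gene body within 100 kb of the summit. SMAD4 is the common partner of the SMADs that BMP and TGF-beta receptors activate, and ChIP-seq located its binding in MS1 cells, an established endothelial line from mouse. All cells were starved of serum for 24 h. They then received either fresh medium (unstimulated) or recombinant BMP9/10, circulating ligands of the endothelial receptor ALK1, at 1 ng/mL (stimulated). Each condition had 2 SMAD4 immunoprecipitates (IP) and 2 input libraries, 8 samples in all, and the authors merged each pair before calling peaks. In the stimulated condition the IP titles carry the letters KD, unexplained in the labels, so stimulated values here are those of the libraries labelled stimulated SMAD4 IP.

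Guidance molecules were first studied in growing axons, which they attract or repel, and blood vessels use the same families. Ephrins and Eph receptors are both held in the membrane and signal at cell contacts, with ephrin-B2 marking arterial and EphB4 marking venous endothelium. Semaphorins act through plexins, and the secreted class 3 members mostly need a neuropilin as co-receptor. Netrins and Slits are secreted and bind Unc5 and Robo receptors, and Unc5b is the Unc5 receptor of endothelial tip cells.

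The lists of the whole series held 1133 unstimulated and 4333 stimulated peaks, of which 1130 and 4324 lay outside mitochondrial DNA. They rest on 52971023 and 41044888 IP tags. No value per replicate can be had from merged libraries, so no difference between conditions below has a replicate check or a test. Of 12 endothelial marker genes, 6 were nearest to an unstimulated peak and 11 to a stimulated one. Of 10 neuron marker genes, 1 and 4 were (Gap43 in both lists, and Nefl, Snap25 and Syn1 in the stimulated one). Over all protein-coding genes 3.79% and 12.2% were, and at the share of genes with like territory 2.23 of the endothelial and 1.92 of the neuron markers would have had a stimulated peak. A peak near a gene does not show that the gene is expressed, and expression was not measured in these samples.

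SMAD4 peaks lay at 4 guidance genes without ligand and at 14 after BMP9/10. The 4 unstimulated genes were the ephrin receptor gene Ephb4, the plexin genes Plxna2 and Plxna4 and the netrin receptor gene Unc5b. All 4 were again nearest to a stimulated peak. The stimulated list added Efna1, Efna5, Efnb2, Epha4, Nrp1, Plxnb2, Plxnd1, Robo3, Sema3e and Sema6d. In number of peaks, 5 of 1130 unstimulated and 21 of 4324 stimulated peaks were nearest to a guidance gene, so the longer list also held more peaks at other genes.

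As a share, 5.97% of the guidance genes had an unstimulated peak (exact binomial 95% interval 1.65 to 14.6), against 3.79% of all protein-coding genes. In the stimulated list the share was 20.9% (11.9 to 32.6) against 12.2%. With the stimulated list shortened by q-value to the 1130 peaks of the unstimulated one, 5 guidance genes (7.46%) had a peak against 3.86% of all genes. These 5 were Ephb4, Plxna4, Plxnd1, Robo3 and Sema6d.

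Guidance genes are long and stand apart from other genes, which bears on these counts. The territory of a gene, the sequence from which it would collect a peak, had a median of 144 kb for guidance genes and 46 kb for all protein-coding genes. With genes divided into 10 equal groups by territory, 37 of the 67 guidance genes fell into the top 2 groups, and so did 9 of the 14 with a stimulated peak. Over all protein-coding genes the share nearest to a stimulated peak was 3.79% in the group of smallest territory and 26.8% in the group of largest. At the share of their own territory groups, 11.7 guidance genes would have had a stimulated peak, and 14 did. For the unstimulated list the figures were 3.82 and 4. Per megabase of territory the guidance genes had 1.21 stimulated peaks and 0.289 unstimulated ones, against 2.04 and 0.523 over all genes. The number of guidance genes with a peak was thus near that of genes in the same territory groups. The group of largest territory ran from 201 to 2512 kb and held 26 of the guidance genes, so the match there is coarse. The peaks per megabase were set against all genes and not against genes of like territory.

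**Figure D1:**
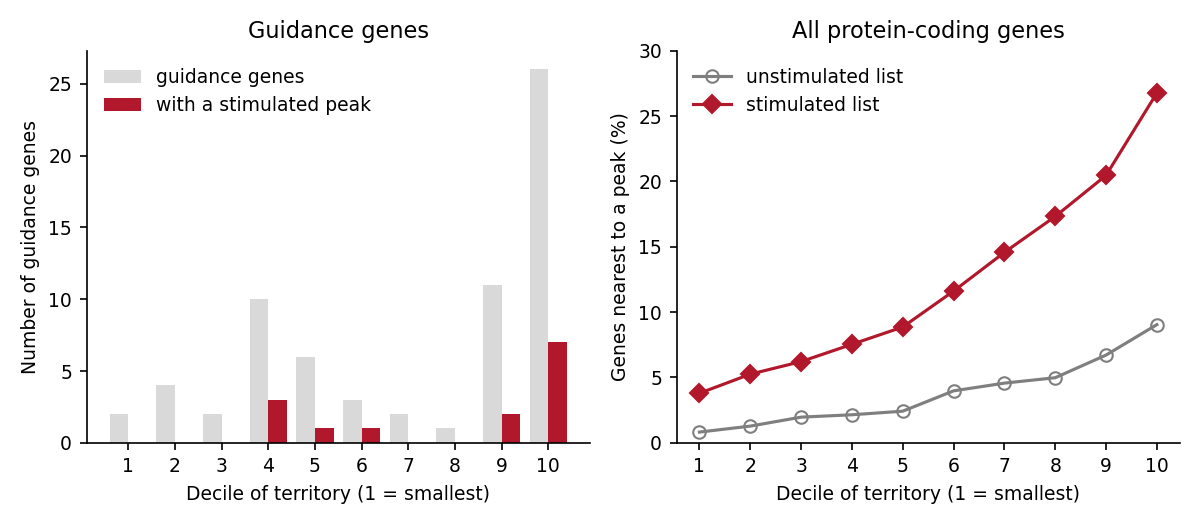
Left: number of guidance genes (grey) and of guidance genes nearest to a stimulated SMAD4 peak (red) in each decile of territory, the sequence from which a gene can collect peaks. Right: percent of all protein-coding genes nearest to an unstimulated (circles) or stimulated (diamonds) peak in the same deciles; the share goes from 3.79% to 26.8% in the stimulated list, and 26 of the 67 guidance genes are in decile 10.

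The counts in single families were small, and they stand against 3.79% (unstimulated) and 12.2% (stimulated) of all protein-coding genes. Among the receptors and co-receptors, 4 of 32 genes had an unstimulated and 9 a stimulated peak, and among the ligands 0 of 35 and 5. The plexins had 2 and 4 of 9, the ephrins 0 and 3 of 8, the Eph receptors 1 and 2 of 14, and the semaphorins 0 and 2 of 20. Among the neuropilins 1 of 2, among the Unc5 receptors 1 of 4 and among the Robo receptors 1 of 3 had a stimulated peak. No netrin (of 4) and no Slit (of 3) was nearest to a peak in either list. These differences between families were not tested, and no family was set against genes of like territory.

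**Figure D2:**
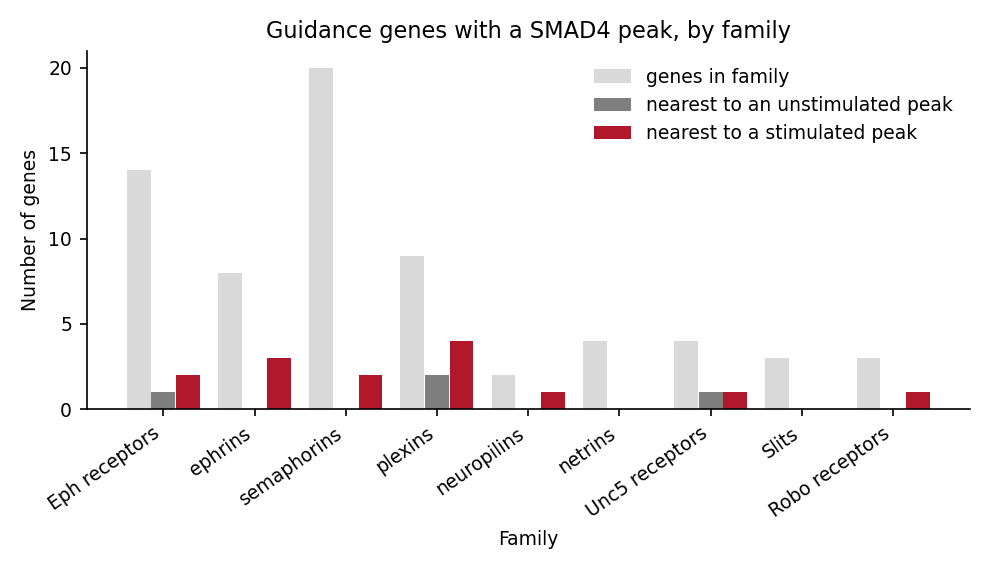
Number of genes in each guidance family (light grey), and of those nearest to an unstimulated (dark grey) or a stimulated (red) SMAD4 peak within 100 kb. Plexins have 4 of 9 genes with a stimulated peak, and the 4 netrins and 3 Slits have none.

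**Figure D3:**
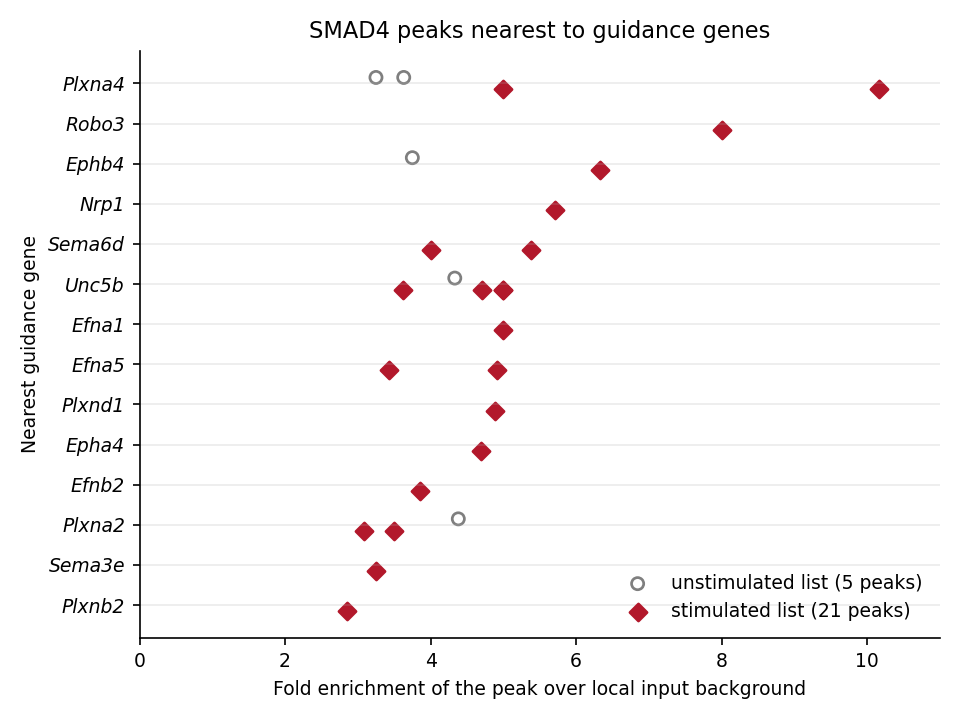
Authors' fold enrichment over local input background of every SMAD4 peak nearest to a guidance gene, with 1 row per gene ordered by its highest stimulated value. Circles are the 5 unstimulated and diamonds the 21 stimulated peaks; the highest are at Plxna4 (10.2) and Robo3 (8.0), and 2 Unc5b peaks share the value 5.0.

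Ephb4, the venous receptor for ephrin-B2, had the tallest IP signal of any guidance gene. Its stimulated peak (chr5:137348566-137349510) was 945 bp wide, the widest at a guidance gene, with a summit 1.29 kb upstream of the listed start. Pileup, the number of extended IP tags over the summit, was 1.83 per 1000000 IP tags there. The unstimulated peak at the same place (chr5:137348646-137348979) had 1.40. Fold enrichment, the authors' ratio of IP to local input background, was 6.33 in the stimulated and 3.75 in the unstimulated list. That background was 0.268 stimulated and 0.359 unstimulated on the same scale as the pileup. The summit lies inside Gm52791, a long noncoding RNA gene, so Ephb4 would lose the peak if noncoding genes were counted too. The next protein-coding gene, Slc12a9, was 8.75 kb away.

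The promoter of Ephb4 is shown because the peak lies beside it: the stimulated peak ended 349 bp upstream of this RefSeq (GRCm38.p6) window, which runs from 250 bp before to 50 bp after the start. Capitals mark the SMAD motifs GGCGCC (1 match) and GGAGCC (2 matches, on either strand).
Ephb4 promoter, chr5:137349859-137350158, plus strand: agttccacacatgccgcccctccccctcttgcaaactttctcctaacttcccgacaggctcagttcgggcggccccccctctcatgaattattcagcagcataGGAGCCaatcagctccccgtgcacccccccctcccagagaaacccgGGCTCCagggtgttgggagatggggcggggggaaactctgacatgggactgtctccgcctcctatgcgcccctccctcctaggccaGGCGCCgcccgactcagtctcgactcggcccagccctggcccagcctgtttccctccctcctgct

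Epha4, an A-class receptor that binds ephrins of both classes, had 1 stimulated peak (chr1:77460914-77461017) inside its gene body, 54.1 kb downstream of the listed start. It had the smallest pileup of the 21, 0.341 per 1000000, over a low background of 0.0535, which gave a fold enrichment of 4.69. The other 12 Eph receptor genes had no peak of their own. Epha2, a receptor of endothelial cells, had a stimulated summit 22.9 kb away (4.19) that was nearer to Arhgef19. The tall Kdm1a peak (19.3 stimulated, 16.7 unstimulated) lay 77.4 kb from Ephb2 and inside Kdm1a.

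Plexins held the strongest site by fold enrichment. In Plxna4, a receptor subunit for class 3 and class 6 semaphorins, a pair of neighbouring peaks lay inside the gene body in both lists, 77.1 and 75.9 kb from the nearer gene end. The second (chr6:32512050-32512461) had a stimulated fold enrichment of 10.2, rank 80 of 4324, and 3.25 in the unstimulated list. Its pileup was 1.51 per 1000000 against 0.963 unstimulated, and its background was 0.127 against 0.283. The first (chr6:32510948-32511381) had a fold enrichment of 5.0 against 3.63, with a pileup of 1.68 against 1.28. The background of the first was 0.317 against 0.340. At each Plxna4 site, then, as at Ephb4, the pileup was higher and the background lower in the stimulated list. In the stimulated list the second summit, and in the unstimulated list both, also lay inside the noncoding gene Plxna4os1.

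Plxna2, which encodes another semaphorin receptor subunit, had a shared peak in its gene body (chr1:194652045-194652413), 32.6 kb from the listed start. Its pileup was 0.804 per 1000000 stimulated and 0.717 unstimulated, but its fold enrichment was 3.09 stimulated and 4.38 unstimulated, since the background was 0.244 against 0.149. A second stimulated peak (chr1:194722476-194722635, fold enrichment 3.5) lay 103 kb from the start. Plxnb2, a receptor for class 4 semaphorins, had a stimulated peak in its gene body, 11.6 kb from the nearer gene end and 3.58 kb downstream of a start listed inside the gene (chr15:89170231-89170378), with the lowest fold enrichment of the 21, 2.85.

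Plxnd1 encodes the endothelial receptor of Sema3e. Its stimulated peak (chr6:116006801-116007043) lay 11.9 kb upstream of the listed start with a fold enrichment of 4.89 and a pileup of 1.05 per 1000000. Tmcc1 was at nearly the same distance from this summit, 11.7 kb against 11.5 kb for Plxnd1. A taller peak 14.2 kb from Plxnd1 (chr6:116009366-116009810) was called in both lists, with a pileup of 2.07 stimulated and 1.36 unstimulated and fold enrichments of 6.14 and 6.08. Tmcc1 was nearer to it, at 9.04 kb, so it was not counted for Plxnd1. With 3 more inside Ift122, 5 stimulated summits lay within 100 kb of Plxnd1, the most of any guidance gene.

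Nrp1, a co-receptor for class 3 semaphorins and for VEGF, had 1 stimulated peak (chr8:128437486-128437768), 78.5 kb into a gene body of 147 kb. Its fold enrichment was 5.71 and its pileup 0.560 per 1000000 over a background of 0.0780. The next protein-coding gene, Itgb1, was 248 kb away. The nearest unstimulated summit was 1210 kb away. For Nrp2, a co-receptor of lymphatic and venous endothelium, the nearest stimulated summit was 920 kb away.

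Unc5b, the endothelial netrin receptor, had 4 stimulated peaks, more than any other guidance gene, and 1 unstimulated one. They lay inside the gene body, 0.131, 12.3, 14.6 and 23.6 kb downstream of the listed start. The peak at 14.6 kb (chr10:60816923-60817106) was called in both lists, with a pileup of 0.682 per 1000000 stimulated and 0.472 unstimulated. Fold enrichment went the other way there, 3.63 stimulated and 4.33 unstimulated, over backgrounds of 0.171 and 0.0944. The 3 peaks of the stimulated list alone had fold enrichments of 5.0 (chr10:60831398-60831525), 4.71 (chr10:60819231-60819373) and 5.0 (chr10:60807888-60808024). All 4 stimulated Unc5b peaks were narrow, from 128 to 184 bp. No other Unc5 gene had a peak.

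The Unc5b promoter is shown because it is the guidance promoter closest to a peak. The stimulated peak began 7 bp downstream of the window, with its summit 131 bp after the start. Of the motifs searched, it holds 2 matches to GGAGCC on either strand, in capitals, in a sequence of 69.7% G and C.
Unc5b promoter, chr10:60831532-60831831, minus strand: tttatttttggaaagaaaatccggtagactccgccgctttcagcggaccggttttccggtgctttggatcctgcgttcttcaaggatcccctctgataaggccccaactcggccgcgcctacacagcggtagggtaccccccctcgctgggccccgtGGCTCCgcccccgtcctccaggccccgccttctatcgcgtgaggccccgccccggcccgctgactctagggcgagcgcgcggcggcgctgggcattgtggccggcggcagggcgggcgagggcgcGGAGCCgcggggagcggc

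Robo3, a member of the Slit receptor family studied mainly in axons that cross the midline, had 1 stimulated peak (chr9:37433903-37434217) and no unstimulated one. Its fold enrichment of 8.0 ranked 241 of 4324, and its pileup was 0.95 per 1000000 over a background of 0.0975. The summit lay 0.810 kb upstream of the listed start. Robo4, the Robo receptor of endothelial cells, which the symbol rule leaves out, was the next protein-coding gene at 19.96 kb. A further pair of stimulated peaks within 100 kb lay inside Msantd2 and the endothelial adhesion gene Esam. Robo1 and Robo2 had no stimulated summit within 779 kb.

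The Robo3 promoter is shown beside this site, which was second by gene in fold enrichment but not in pileup. The peak was 478 bp upstream of the window, and none of the 4 motifs searched was in these letters on either strand.
Robo3 promoter, chr9:37433126-37433425, minus strand: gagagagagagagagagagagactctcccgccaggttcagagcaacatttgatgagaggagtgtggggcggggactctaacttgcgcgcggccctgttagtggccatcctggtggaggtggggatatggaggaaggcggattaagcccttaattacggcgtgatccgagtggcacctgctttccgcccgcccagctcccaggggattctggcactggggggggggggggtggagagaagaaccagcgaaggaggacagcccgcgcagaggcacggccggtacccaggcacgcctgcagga

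**Figure D4:**
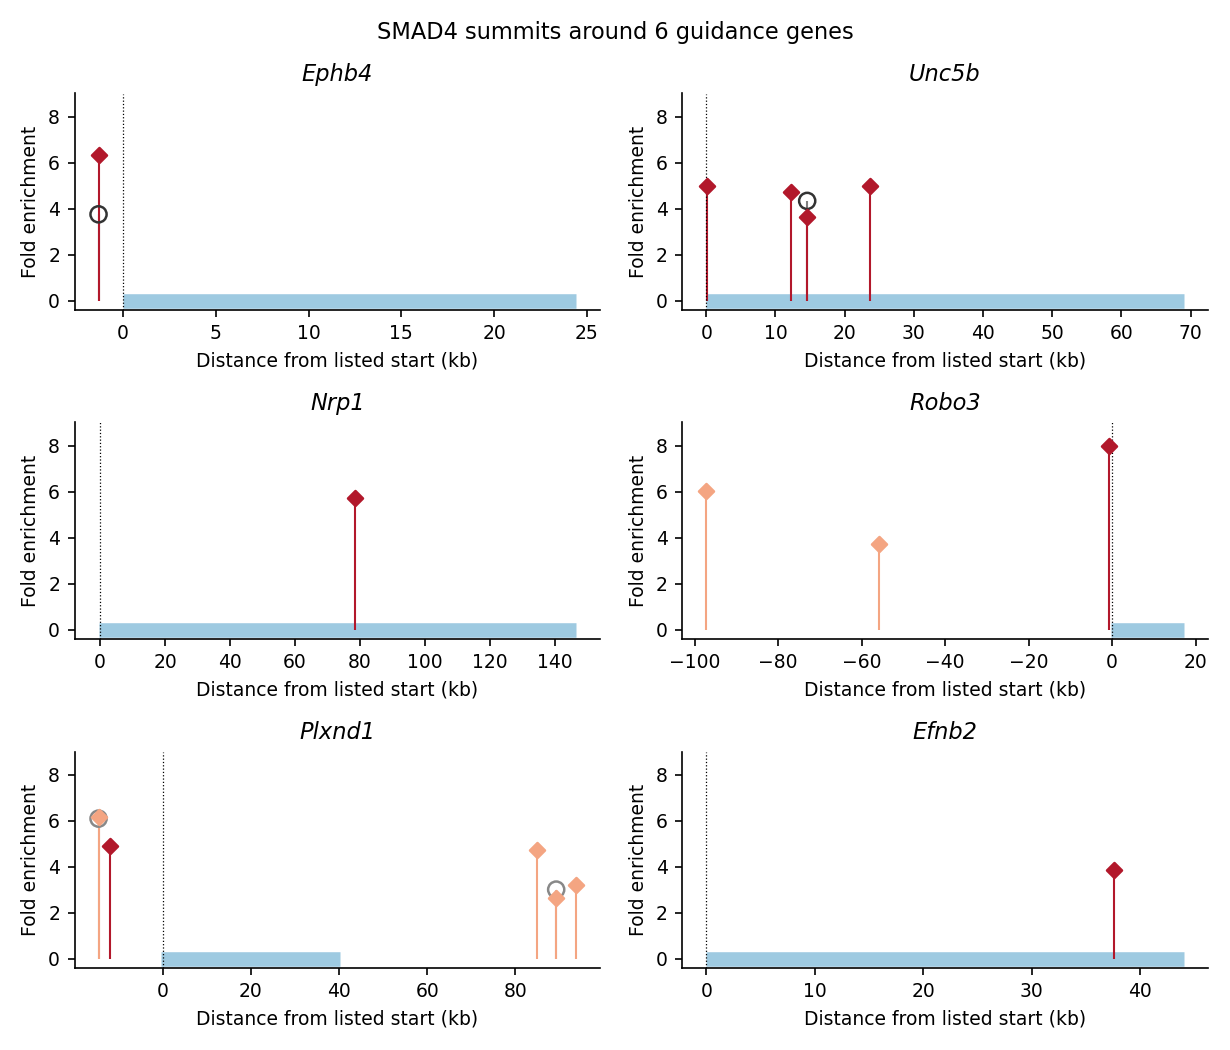
SMAD4 summits within 100 kb of the bodies of 6 guidance genes, drawn by distance from the listed start in the direction of the gene (kb) and by fold enrichment; the blue bar is the gene body and the dotted line the start. Diamonds are stimulated and open circles unstimulated peaks, and pale markers are peaks nearer to another gene, as for 4 of the 5 stimulated summits around Plxnd1.

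Among the ligands, ephrin genes had 4 stimulated peaks and no unstimulated one. Efna1, an endothelial ephrin induced by inflammatory signals, had a peak inside its gene body (chr3:89277945-89278335), 1.38 kb downstream of a listed start. Its fold enrichment was 5.0 and its pileup 0.731 per 1000000. Another peak 20.2 kb from Efna1, nearer to Krtcap2, was called in both lists (7.25 stimulated, 4.14 unstimulated). Efnb2, the arterial ephrin and ligand of EphB4, had a stimulated peak (chr8:8623612-8623754) 37.6 kb into its gene body of 44.0 kb, with a fold enrichment of 3.86 and a pileup of 0.633. Efna5 had a peak in its gene body (3.43, chr17:62649376-62649551) and another 57.4 kb outside it (4.92, chr17:62545432-62545640).

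Of 20 semaphorin genes, Sema6d and Sema3e had stimulated peaks. Sema6d, a membrane-bound ligand of A plexins, had 2 inside a gene body of 578 kb. The stronger (chr2:124555064-124555357) had a fold enrichment of 5.38 and a pileup of 1.02 per 1000000, and the other (chr2:124444288-124444469) 4.0 and 0.365. Sema3e, the secreted ligand of plexin-D1, had a peak 50.3 kb upstream of its start (chr5:13974787-13975011) with a fold enrichment of 3.25. Sema3a, Sema3c, Sema3g and Sema6a had no stimulated summit within 100 kb. For Sema4d, a ligand of plexin-B1, the nearest summit was 33.9 kb away at Secisbp2, with fold enrichments of 10.5 stimulated and 4.67 unstimulated. Sema3f had one at 48.1 kb, inside Gnai2.

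Netrin and Slit ligand genes had no peak of their own. The nearest stimulated summits were 117 kb from Ntn1, 45.2 kb from Ntn4 (nearer to Snrpf), 256 kb from Slit2 and 126 kb from Slit3. Slit1 had a site 54.7 kb away, inside Arhgap19, in both lists (6.44 stimulated, 5.78 unstimulated).

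Some guidance genes without a peak of their own had a site nearby that was nearer to another gene. Of the 53 guidance genes without a stimulated peak, 20 had a stimulated summit within 100 kb that was nearer to another gene, and 33 had none in that range. The like share over all protein-coding genes without a stimulated peak was not computed. Counting any summit within 100 kb, 34 guidance genes (50.7%) had a stimulated one against 36.5% of all protein-coding genes. For the unstimulated list it was 14 (20.9%) against 13.1%. The median gene body was 46.3 kb for guidance genes and 17.2 kb for all protein-coding genes. A longer gene has a wider range for a summit, and the part of length in these differences was not tested. At the other side of the limit, no assigned stimulated summit lay between 57.4 kb (Efna5) and 100 kb from its guidance gene. The first beyond it were nearest to Efnb1 (116 kb, fold enrichment 4.20) and Efna5 (125 kb, 3.0).

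All 5 unstimulated guidance peaks overlapped a stimulated one by at least 1 bp, against 96.0% of all unstimulated peaks. With an overlap of at least 50% of each peak required, 60% of them did. In the other direction 5 of the 21 stimulated guidance peaks did (23.8%, exact binomial 95% interval 8.22 to 47.2), against 24.95% of all stimulated peaks, and 14.3% did at the stricter overlap. The counting interval of each pileup ratio, stimulated over unstimulated and per IP tag, covers counting error alone. The ratios were 1.57 (1.07 to 2.32) at the second Plxna4 site and 1.31 (0.923 to 1.86) at the first. They were 1.45 (0.813 to 2.58) at Unc5b, 1.31 (0.936 to 1.83) at Ephb4 and 1.12 (0.681 to 1.84) at Plxna2. Every one of the 5 sites had the higher pileup per tag in the stimulated list, and at the second Plxna4 site alone the interval lay above 1. The median of the 5 was 1.31, and that of all 1078 shared pairs was 1.47 (interquartile range 1.29 to 1.68), of which 36.6% had an interval above 1. Of the 5 guidance sites, 4 were below the median of all pairs.

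**Figure D5:**
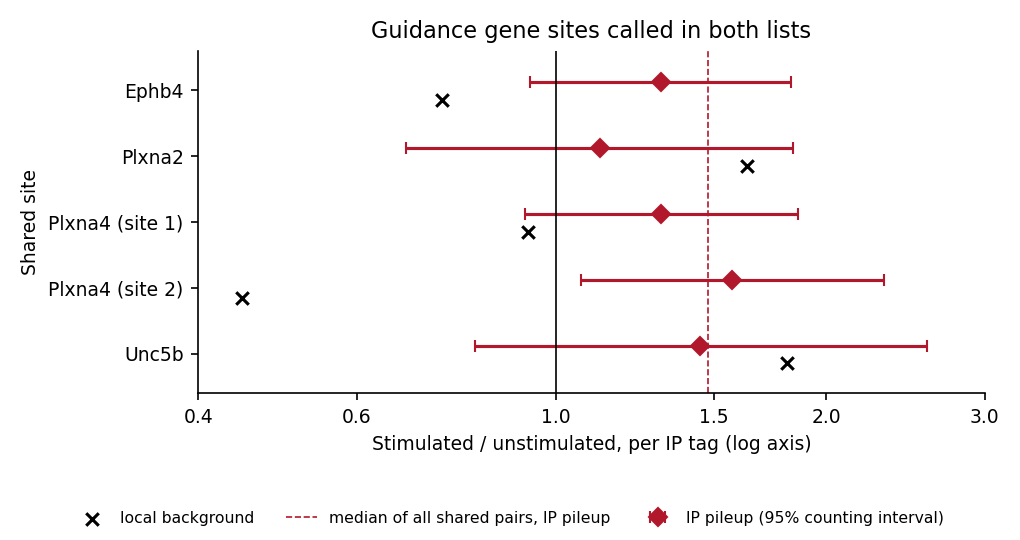
Stimulated over unstimulated ratio of pileup, scaled per IP tag, at the 5 guidance gene sites called in both lists (diamonds, with exact binomial 95% counting intervals) and the same ratio of local background (crosses), on a log axis. The dashed line is the median over all 1078 shared pairs (1.47); the background ratio runs from 0.447 at the second Plxna4 site to 1.81 at Unc5b.

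Fold enrichment and pileup ordered these sites differently. Fold enrichment was lower in the stimulated list at Plxna2 and Unc5b, where the background ratio was 1.63 and 1.81, and higher at Ephb4 and both Plxna4 sites, where it was 0.747, 0.932 and 0.447. The median background ratio over all shared pairs was 1.00.

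The 16 guidance peaks called in the stimulated list alone do not show that SMAD4 was absent there without ligand. At the background each of these sites had in the stimulated list, the pileup per tag was 1.17 to 2.65 times the lowest that the unstimulated list would have called, with a median of 1.58. The largest values were at Robo3 (2.65), the stronger Sema6d site (2.01) and Plxnd1 (1.91). The smallest were at the second Plxna2 peak (1.17) and Sema3e (1.19). Over all 3245 such stimulated peaks the median was 1.47. All of these ratios were above 1. Each belongs to a peak already called in the stimulated list, at that list's own background, so a value near or above 1 followed largely from the calling. The unstimulated list also had more tags and so a lower limit. Its background at these sites was not used, so the ratios do not measure how visible a site was without ligand.

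Most stimulated guidance peaks lay inside genes. Of the 21 stimulated peaks, 16 were in a gene body (76.2%, exact binomial 95% interval 52.8 to 91.8). The intervals here take peaks as independent. The 21 peaks came from 14 genes, with 4 at Unc5b, so the intervals may be too narrow. Among all stimulated peaks with a gene within 100 kb, 52.0% were. Gene bodies made up 69.6% of the territory of guidance genes and 53.5% of that of all genes; the part of gene length in the difference was not tested. Whether the peaks inside genes are in exons or introns was not analysed here. Within 1 kb of a listed start lay 2 of the 21 (9.52%, exact binomial 95% interval 1.17 to 30.4, at Unc5b and Robo3). Over all 4324 stimulated peaks the share was 16.8%, inside that interval. The sets are unlike, as only 3892 of these peaks had a gene within 100 kb. Plxna4, with a pair of the 21 peaks, has no listed start. No stimulated peak overlapped any of the 74 promoter windows of 58 guidance genes, which allows a share of up to 4.05%, and 2.85% of the windows of all protein-coding genes were overlapped. Their median fold enrichment was 4.89 and their median width 209 bp, against 4.56 and 207 bp over all stimulated peaks.

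The promoters of guidance genes were rich in G and C. The median was 64.3% over their 74 windows and 56.3% over 21263 windows of protein-coding genes. Each motif was searched on both strands and none contains another. The palindromic SMAD box GTCTAGAC was in 0 guidance windows and in 0.226% of all windows. Its core with 1 more base, CAGAC, was in 58.1% against 48.4%. The GC-rich motif GGCGCC was in 21.6% against 15.3%. A related one, GGAGCC, was in 52.7% against 34.9%. The higher shares go with the higher G and C content, and its part in them was not tested. The windows of the 13 genes with a stimulated peak (16 in all) held CAGAC in 8, GGCGCC in 4 and GGAGCC in 8.

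Other genes of the guidance pathways, outside the symbol rule, had peaks in larger shares than the ligands and receptors, a difference that was not tested. Of 40 such co-receptors and signal transducers, 7 (17.5%, against 3.79% of all genes) were nearest to an unstimulated and 12 (30%, against 12.2%) to a stimulated peak. At the share of their territory groups, 7.22 of them would have had a stimulated peak. The like value for the unstimulated list was not computed. This list of 40 was chosen with earlier results of these data known. The strongest site by fold enrichment was inside Mical2, whose product oxidises actin (9.30 stimulated, 4.0 unstimulated). Mical2 had 6 stimulated peaks. Chn2, which encodes a GTPase-activating protein for Rac, had 3, and the highest fold enrichment, 6.67, was 0.051 kb outside the gene body. Rnd1, a small GTPase that binds plexins, had a shared site 14.98 kb away (5.40 stimulated, 4.58 unstimulated). Ablim1, Chn1, Chn2 and Mical3 also had sites called in both lists. Tiam1 had a peak in each list, but at different places that did not overlap. Nck2, Neo1, Rnd3, Srgap2 and Vav3 had peaks in the stimulated list alone. Neo1, a netrin and RGM receptor, had a stimulated site inside the gene with a fold enrichment of 5.0. No peak was nearest to Robo4 or to the netrin receptor gene Dcc.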

How the data were processed

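SMAD4 ChIP-seq peaks were analysed from 2 deposited lists, 1 per condition. Per the file headers, the authors called each list with MACS 2.1.0.20140616 on 2 merged IP libraries against 2 merged inputs, with at most 1 tag per position, 100 bp extension and a q cutoff of 0.01. Positions are on mm10, per the submitters' processing notes, 1-based. The sources used here do not name the aligner. The authors deposited pileup as an unscaled coverage signal, which was expressed per 1000000 IP tags. Per the file headers, the lists used different band widths (300 and 200). Background was recovered from pileup and the authors' fold enrichment, a ratio in which MACS adds 1 to both sides. The recovered background gave Poisson p-values within 1% of the authors' deposited −log10 p for all peaks, and the authors' −log10 q values ranked peaks for the shortened list.

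Genes came from RefSeq (GRCm38.p6, the assembly of mm10). Starts came from its promoter windows, which cover 58 of the 67 genes. Distances ran from summit to gene body, ties kept. Peaks were shared at an overlap of 1 bp or more, and the closest summits were paired once. Territories were measured on a 1 kb grid. Intervals are exact binomial at 95%. Those on shares of peaks take the peaks as independent, though some guidance genes had more than 1. Replicate libraries were merged, so the intervals of the pileup ratios cover counting error only and not the spread between replicates. In place of a chance comparison on territory, shares over genes of the same territory decile were given. No genome sequence was used, so motifs were searched in promoter windows and not in peaks.

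Genes named were those with an unstimulated peak, the 15 with the highest stimulated fold enrichment (14 had any) and a fixed set of vascular members. The Ephb4 promoter was added after its values were seen. The members and lists were chosen with earlier results of these data known. The code was checked on simulated data. Python 3.11.15, pandas 2.3.3, numpy 2.4.6 and scipy 1.17.1 were used.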

Additional observations from a re-analysis of the deposited data

How the results depend on the processing

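Of 31 alternative values, 7 counts or shares moved beyond 1.5 times or the counting interval of the value reported, and 1 changed direction. The interval is wide for shares of 5 or 21 peaks. Within it, the overlap of unstimulated peaks was 60% in place of 100% both at an overlap of at least 50% of each peak and with the shortened list, and that of stimulated peaks was 14.3% in place of 23.8% at the stricter overlap. The 4 genes with an unstimulated peak became 14 when any summit within 100 kb counted, 2 (Ephb4 and Plxna4) at a −log10 q of at least 10, and 2 (Plxna2 and Unc5b) at a fold enrichment of at least 4. The 14 genes with a stimulated peak became 34 when any summit within 100 kb counted, and 5 both at a −log10 q of at least 10 and with the shortened list. With the shortened list 50% of the stimulated guidance peaks (3 of 6) overlapped an unstimulated one. These filters remove peaks by construction, and the shares over all protein-coding genes fell as well. At a −log10 q of at least 10 they were 1.38% (unstimulated) and 5.07% (stimulated). At a fold enrichment of at least 4 the unstimulated share was 2.14%. Scaled by the median of all shared pairs in place of IP tags, the median pileup ratio at shared guidance sites was 0.888. That scaling sets the median of all pairs to 1, so the value restates 1.31 against 1.47. With noncoding genes competing, 3 and 13 guidance genes had a peak, against 2.81% and 9.97% of all protein-coding genes. Ephb4 then had none in either list. No paired analysis was possible because each list pools its libraries, and for the same reason no replicate could be left out. At 4 of the 5 shared sites the counting interval of the pileup ratio includes 1.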
